A study of Mus musculus with 4 samples.

Results

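Type 1 conventional dendritic cells (cDC1) were described in single-cell RNA-seq of dissociated mouse lung tumors, in which RNA molecules are counted per gene and per cell by their unique molecular identifiers (UMIs). A cell was taken as a cDC1 when it held at least 2 UMIs of Xcr1 and Clec9a together, at least 5 UMIs of the MHC class II genes H2-Aa, H2-Ab1 and H2-Eb1, at most 3 UMIs of C1qa, C1qb and C1qc, and 0 UMIs of Cd79a and of the Cd3 genes Cd3d, Cd3e and Cd3g. The rule found 82 cells among 20351 in the matrix, of which 19892 had at least 200 genes and at most 13.4% mitochondrial UMIs. That was 0.412% of the cells passing this filter (exact 95% binomial interval 0.328 to 0.511%).

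The tumors came from 2 Restored and 2 Non-Restored female mice. Their own ages were not stated, and mice of these experiments were 6 to 12 weeks old when tumors were started. Non-Restored mice carried Lkb1XTR/XTR with Rosa26LSL-tdTomato, and Restored mice carried Lkb1XTR/XTR with Rosa26LSL-tdTomato/FLPo-ERT2. All 4 mice were given Lenti-Cre to start tumors, which had grown for 16 weeks, and all 4 received tamoxifen in doses of 4 mg over 2 weeks. Cre switches on tdTomato and turns a gene trap in Lkb1 into its active orientation, where it interrupts the gene and expresses GFP. FLPo-ERT2, a recombinase that acts after tamoxifen, removes the trap and is present in Restored mice alone. Cre acts in the cells that the lentivirus enters, and tdTomato marks them. Viable cells of microdissected tumors were sorted with DAPI as the mark of dead cells. The matrix joins the cells of all mice and its columns carry a number alone, so cDC1 could not be assigned to a mouse, Restored and Non-Restored mice were not compared, and barcodes shared between libraries were not counted. All cells therefore count as 1 sample, and every interval given here is an exact 95% interval that covers counting error within this sample and no spread between mice.

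cDC1 are the dendritic cells best known for carrying antigen from dead cells to MHC class I, a route called cross-presentation, and for priming CD8+ T cells with it. Their development depends on the transcription factors Irf8, Batf3 and Id2. In mouse lung they lie near the airway epithelium and carry the integrin CD103, encoded by Itgae, and langerin, encoded by Cd207. Xcr1 encodes the receptor for Xcl1, a chemokine made by NK cells and CD8+ T cells, and Clec9a encodes a receptor for actin filaments exposed on dead cells. They are set against type 2 conventional dendritic cells (cDC2), against mature dendritic cells, which have switched to the migratory program marked by Ccr7 and Fscn1, and against plasmacytoid dendritic cells (pDC), which are known for type I interferon. These classes were also set by gates on UMIs, with the C1q, Cd79a and Cd3 limits of the rule. cDC2-like cells, called cDC2 here, held at least 2 UMIs of Cd209a, Clec10a and Mgl2 together, at least 5 MHC class II UMIs and 0 UMIs of Xcr1 and Clec9a. Mature dendritic cells held at least 3 UMIs of Fscn1, Ccl22 and Ccr7, at least 5 MHC class II UMIs and at most 1 UMI of Xcr1 and Clec9a, and pDC held at least 2 UMIs of Siglech and Ccr9 and at most 1 of Xcr1 and Clec9a. The genes of these gates and of the rule were left out of all counts, sums and rankings between classes.

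The members were chosen by their UMIs of Xcr1, Clec9a, the MHC class II genes, C1q, Cd79a and Cd3, so the levels of these genes are a description. The 2 leading genes of the choice lie at chr9:123852315-123862029 on the minus strand (Xcr1) and at chr6:129408862-129424763 on the plus strand (Clec9a) of mm10. The identity genes they are read against below include Itgae at chr11:73090583-73147446, Irf8 at chr8:120736358-120756694 and Batf3 at chr1:191097847-191108945, all on the plus strand. The promoters of the choosing genes are shown first, as the 250 bases before the RefSeq start on GRCm38.p6, 5′ to 3′. Cd207 and Tlr11 follow them as examples. Each was at least 2-fold higher in cDC1 than in the other dendritic cells and its window held a motif that was searched, which stands in capitals. Ifi205 met both conditions as well, and its window is not shown. The capitals are TGANTCA, the AP-1 site that Batf3 with a Jun partner can bind, in Cd207 (chr6:83677858-83678107, minus strand), and GAAA repeated after 2 further bases, which resembles an interferon-stimulated response element that Irf factors can bind, in Tlr11 (chr14:50357664-50357913, plus strand). The Xcr1 window is chr9:123862030-123862279 on the minus strand, and the Clec9a window is chr6:129408612-129408861 on the plus strand.
Xcr1: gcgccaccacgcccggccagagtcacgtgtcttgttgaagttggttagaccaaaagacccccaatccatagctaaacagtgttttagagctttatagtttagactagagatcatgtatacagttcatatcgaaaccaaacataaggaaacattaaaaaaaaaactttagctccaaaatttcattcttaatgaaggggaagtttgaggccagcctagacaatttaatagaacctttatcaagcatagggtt
Clec9a: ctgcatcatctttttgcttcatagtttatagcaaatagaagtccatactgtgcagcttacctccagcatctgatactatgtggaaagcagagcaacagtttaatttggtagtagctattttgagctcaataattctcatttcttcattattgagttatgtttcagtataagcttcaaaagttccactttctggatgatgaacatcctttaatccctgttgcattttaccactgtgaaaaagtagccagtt
Cd207: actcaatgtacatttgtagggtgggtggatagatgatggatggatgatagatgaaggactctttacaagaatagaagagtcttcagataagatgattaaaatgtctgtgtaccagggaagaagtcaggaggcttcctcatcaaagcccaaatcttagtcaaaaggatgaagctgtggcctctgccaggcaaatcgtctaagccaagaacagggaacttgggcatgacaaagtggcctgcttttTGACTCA
Tlr11: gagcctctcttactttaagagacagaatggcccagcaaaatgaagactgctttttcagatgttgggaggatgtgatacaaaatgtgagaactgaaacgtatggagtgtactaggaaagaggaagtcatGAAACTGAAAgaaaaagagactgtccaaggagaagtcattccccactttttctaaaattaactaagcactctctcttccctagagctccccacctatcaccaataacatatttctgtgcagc

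Of 28 genes looked up, 23 had a promoter in the RefSeq table, with 25 windows between them. TGANTCA, searched on both strands, was in 1 of the 25 windows (Cd207) and in 6.75% of all 32851 windows. The repeated GAAA was in the windows of Ifi205 and Tlr11 and in 2.98% of all windows. GGAA followed after 2 bases by GAAA, a composite of ETS and IRF sites, was in the window of Cd8a and in 2.3% of all. A match is a run of letters in a short window and not a measured site, and these cells carry no measurement of binding.

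Of the 88 cells with at least 2 UMIs of Xcr1 and Clec9a, 3 were lost to the MHC class II criterion, 3 to Cd3, 1 to Cd79a and 0 to C1q, some to more than 1 of them. Among the members 40 held Xcr1 without Clec9a, 38 held both and 4 held Clec9a without Xcr1. These counts describe the choice. The cells just outside the threshold, with 1 UMI of the pair and the other criteria met, numbered 56, and 23.2% of them held Itgae, 62.5% Naaa and 76.8% Irf8. The cells just inside, with 2 UMIs, numbered 17, and the shares were 64.7%, 88.2% and 94.1%. At 3 UMIs (18 cells) they were 66.7%, 100% and 100%, and at 4 or more (47 cells) 80.9%, 100% and 93.6%. These shares were not thinned, and the median depth rose over the 4 steps, from 4091.5 to 5760, 6271 and 7209 UMIs. Siglech was held by 32.1% of the cells with 1 UMI of the pair, and by 11.8%, 11.1% and 14.9% at the later steps.

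The members were deep cells. They held 1994 to 18782 UMIs with a median of 6761, against medians of 4353.5 in 326 cDC2, 4306 in 116 mature dendritic cells, 2862 in 156 pDC and 1986 over all 19810 other cells. They held 900 to 4333 genes and 2.12 to 7.01% mitochondrial UMIs, and 565881 UMIs in all. A rule that needs 2 UMIs of 2 genes reaches deep cells more easily, so levels are given as CPM, the UMIs of a gene over the total of its class scaled to a total of 1000000, and shares of cells with a UMI also after each cell was thinned to 1000 UMIs. Libraries that read the 3′ end count each RNA once, so CPM are per molecule and carry no length correction. Log2 ratios of single genes and sums are ratios of CPM as they stand, while genes are counted as 2-fold or 4-fold apart after 10 CPM is added to both sides. cDC1 made up 12.1% of the 680 cells in the 4 dendritic gates (exact interval 9.71 to 14.8%).

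Neutrophil transcripts stood in part of the members and are described before the other results. S100a8 and S100a9, the abundant calcium-binding proteins of neutrophils, together reached 10 UMIs in 20 of the 82 cDC1, or 24.4% (15.6 to 35.1%). Those 20 held from 17 to 435 UMIs of the pair with a median of 171, and all 20 also held Csf3r, the G-CSF receptor. The other 62 held from 0 to 7, and 55 of them held 0, so few cells lay near the limit. The same limit was reached by 3 of 326 cDC2 (0.920%), by 0 of 116 mature dendritic cells, which allows a share of up to 2.59% when a count of 0 is taken to allow 3 cells, by 14 of 156 pDC (8.97%, 4.99 to 14.6%), and, in reference gates on Cd3, C1q or epithelial genes, by 2.18% of T cells, 1.05% of macrophages and 1.26% of epithelial cells. Depth was higher in the 20 members, with a median of 7891 UMIs against 6150 in the 62. Among cells with at least 5000 UMIs the shares were 19 of 65 cDC1 (29.2%, 18.6 to 41.8%), 2 of 126 cDC2 (1.59%), 0 of 51 mature dendritic cells, 7 of 20 pDC (35.0%, 15.4 to 59.2%), 7.84% of T cells and 5.60% of endothelial cells. The cDC1 share thus lay above that of cDC2 with no overlap of the intervals at either depth, and its interval overlapped that of the deep pDC.

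**Figure D1:**
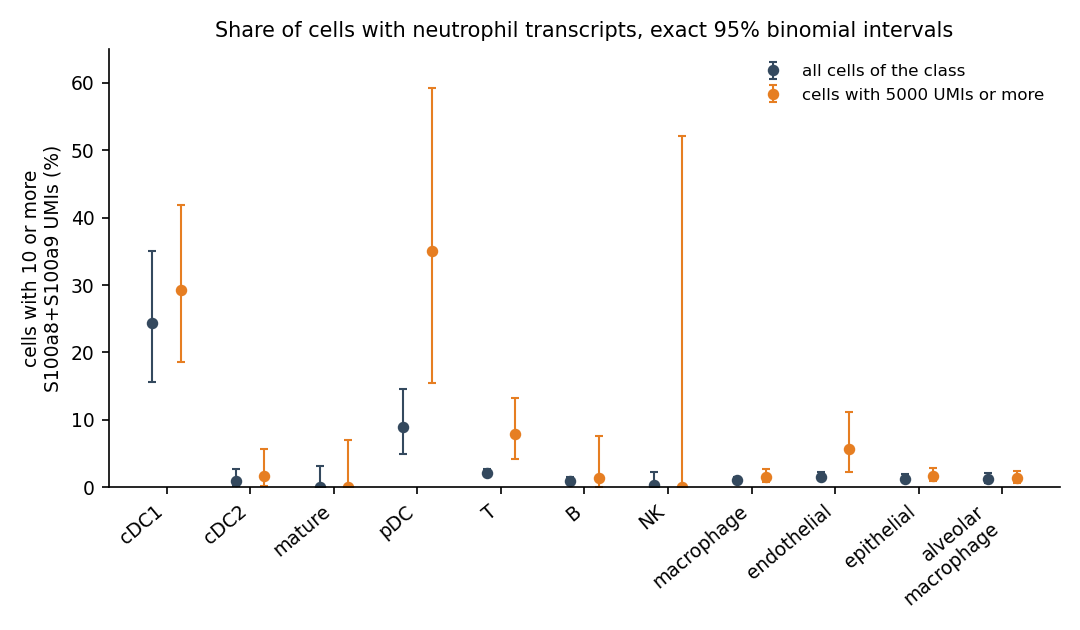
Share of cells with 10 or more UMIs of S100a8 and S100a9 (vertical axis, percent) in each class of cells (horizontal axis), for all cells and for cells with 5000 UMIs or more, with exact 95% binomial intervals. All cDC1 sit at 24.4% and all cDC2 at 0.920%, while the deep pDC sit at 35.0% with an interval from 15.4 to 59.2%.

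The 20 cDC1 with neutrophil transcripts carried further granulocyte genes. Wfdc21 stood at 490 CPM in them (18 of 20 cells) against 5.15 CPM in the 62 (1 cell), and the chemokine receptor Cxcr2 at 270.2 against 5.15 CPM. The iron-binding protein Lcn2 stood at 383 against 5.15 CPM, the histamine-producing enzyme Hdc at 388 against 5.15, and the receptor Trem1 at 174.5 against 0. Il1b, which neutrophils and dendritic cells both make, was at 2741 against 868 CPM. Several cDC1 genes were at like levels in both sets, with Irf8 at 1002 and 994 CPM, Sept3 at 433 and 428, and Xcr1, which chose them, at 479 and 528. Naaa was somewhat higher in the 20, at 1728 against 1445 CPM, and Cd207 was at 231 against 113 CPM, a log2 ratio of 1.03 (0.38 to 1.67). Other genes were lower in the 20. Cst3 was at 21278 against 28058 CPM, a log2 ratio of -0.40 (-0.45 to -0.35), and Cd74 at 14816 against 18989. Epcam was at 304 against 525.5 CPM, and Ccl17 at 56.3 against 366, a log2 ratio of -2.70 (-3.79 to -1.78). Scrublet, which marks columns that look like 2 cells joined, called 0 of the 82 cDC1 and 181 of 20299 cells in all (0.892%). Why neutrophil and cDC1 transcripts share these columns was not tested, and list calls that change when the cells with these transcripts are left out of every class are named below.

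**Figure D2:**
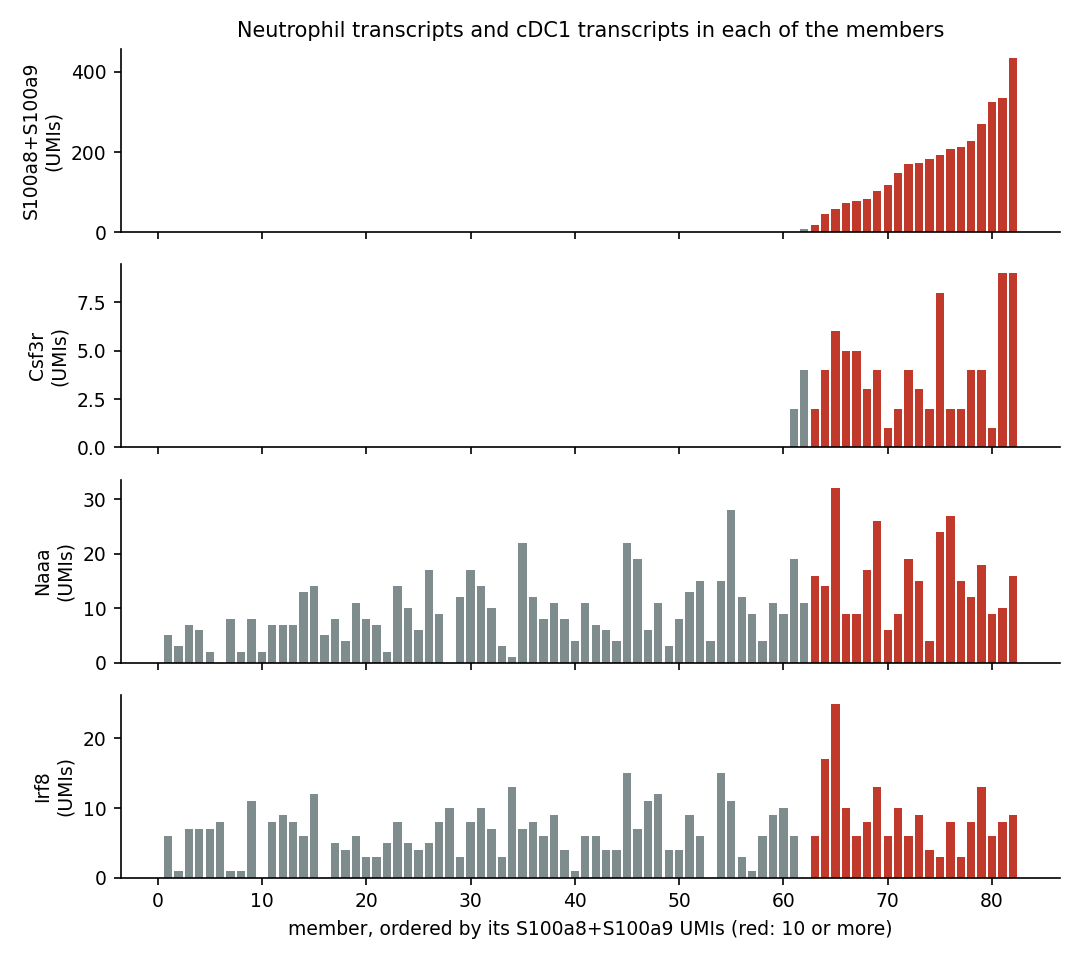
UMIs per cell (vertical axes, 1 panel per gene or gene pair) in each of the 82 cDC1, ordered by their S100a8 and S100a9 UMIs along the horizontal axis, with the 20 cells at 10 or more in red. The red cells hold 17 to 435 UMIs of the pair, with Naaa at 1728 CPM and Irf8 at 1002 CPM over the 20 cells.

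In 2 other members Siglech, a receptor of pDC, reached 24 and 13 UMIs. Both held 0 UMIs of Xcr1, 2 of Clec9a, 0 of Naaa and 0 of Itgae, in totals of 6147 and 3767 UMIs. pDC also carried Clec9a, at 37.0 CPM even though their gate allows at most 1 UMI of it with Xcr1, so these 2 cells meet the rule while their transcripts go against the label. The 60 members left after both sets are set aside are called core cDC1, a choice made after the values were seen.

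The label was then set beside a list of identity genes over all 82 members. The list was chosen with earlier results of these data known, so its counts are a description and not an independent check. Of the members, 28 also held at least 2 UMIs of the cDC2 gate genes and 3 at least 2 of the pDC gate genes. Of 26 cDC1 identity genes that the rule did not use, 24 reached 20 CPM in cDC1 or in the other dendritic cells, 19 were at least 2-fold higher in cDC1 and 0 were at least 2-fold lower. Over all 5555 genes at that level, 3.28% were at least 2-fold higher (182 genes), 0.522% were at least 4-fold higher (29 genes) and 6.79% were at least 2-fold lower (377 genes). The median log2 ratio was 1.92 in the list and -0.097 over all genes. Summed over the list, cDC1 held 7102 CPM and the other dendritic cells 1931 CPM, a log2 ratio of 1.88 (1.82 to 1.94). With the cells holding neutrophil transcripts left out of every class, 18 of 25 measured list genes were at least 2-fold higher, Cd24a no longer among them, against 2.79% of 5565 genes, and 9.09% of those genes were at least 2-fold lower. In core cDC1 against the other dendritic cells, 18 of 25 were at least 2-fold higher, where 2.93% of 5559 genes were, and the list summed to 7039 CPM. Against all other cells, 20 of 24 were at least 2-fold higher, where 4.24% of 6082 genes were.

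Itgae, the integrin that pairs with Itgb7 to hold cells at epithelium, had 0 to 8 UMIs per member with a median of 2, and 61 of 82 members held it. Its level was 293 CPM (250.4 to 342), against 31.8 in cDC2, 18.0 in mature dendritic cells and 5.55 in pDC, and its log2 ratio over the other dendritic cells was 3.63 (3.20 to 4.07). After thinning, 25.6% of cDC1 held Itgae, against 1.85% of cDC2 and 0.0746% of B cells, which should lack it. The same share without thinning was 74.4% in cDC1. Its partner Itgb7 was less unequal, at 138 CPM against 124 in cDC2 and 105 in pDC.

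The transcription factors of the lineage were not all particular to cDC1. Irf8 had 0 to 25 UMIs per member with a median of 6, and 78 of 82 members held it. Its level was 997 CPM (916 to 1082), above the 44.3 CPM of cDC2 and the 410 of mature dendritic cells but below the 1665 of pDC, a cell type that also depends on it. Thinned shares with an Irf8 UMI were 64.6% in cDC1, 4.32% in cDC2 and 14.7% in B cells. Id2, which blocks E proteins and so the pDC program, was at 963 CPM in cDC1, 375 in cDC2, 861 in mature dendritic cells and 70.3 in pDC. Batf3 was lower in level, at 101 CPM (76.3 to 131), against 53.7 in cDC2, 153 in mature dendritic cells and 3.70 in pDC, and its log2 ratio over the other dendritic cells was 0.65 (0.19 to 1.09). Zbtb46, a factor of all conventional dendritic cells, was at 33.6 CPM against 23.7 in cDC2, with overlap of the counting interval (20.2 to 52.4). The adhesion molecule Cadm1, often used to sort cDC1, was at 91.9 CPM in cDC1 and 3.74 in cDC2 but at 229 in pDC.

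The most abundant identity gene was Naaa, a lysosomal amidase that breaks down fatty acid ethanolamides. It had 0 to 32 UMIs per member with a median of 9, and 80 of 82 members held it. Its level was 1534 CPM (1434 to 1639), against 193 in cDC2, 43.3 in mature dendritic cells and 24.1 in pDC, a log2 ratio over the other dendritic cells of 3.58 (3.39 to 3.76). Thinned shares were 73.2% of cDC1, 16.4% of cDC2 and 2.31% of B cells. Ppt1, a lysosomal enzyme that removes palmitate from proteins, was at 587 CPM against 64.9 in cDC2. Sept3, a septin, was at 429 CPM (377 to 487) against 79.9 in cDC2, 9.02 in mature dendritic cells and 4.37 over all other cells, and 68 of 82 members held it. Wdfy4, which cDC1 need for cross-presentation of cell-bound antigen, was at 270 CPM against 74.3 in cDC2, 30.7 in mature dendritic cells and 27.8 in pDC, and 64 of 82 members held it.

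**Figure D3:**
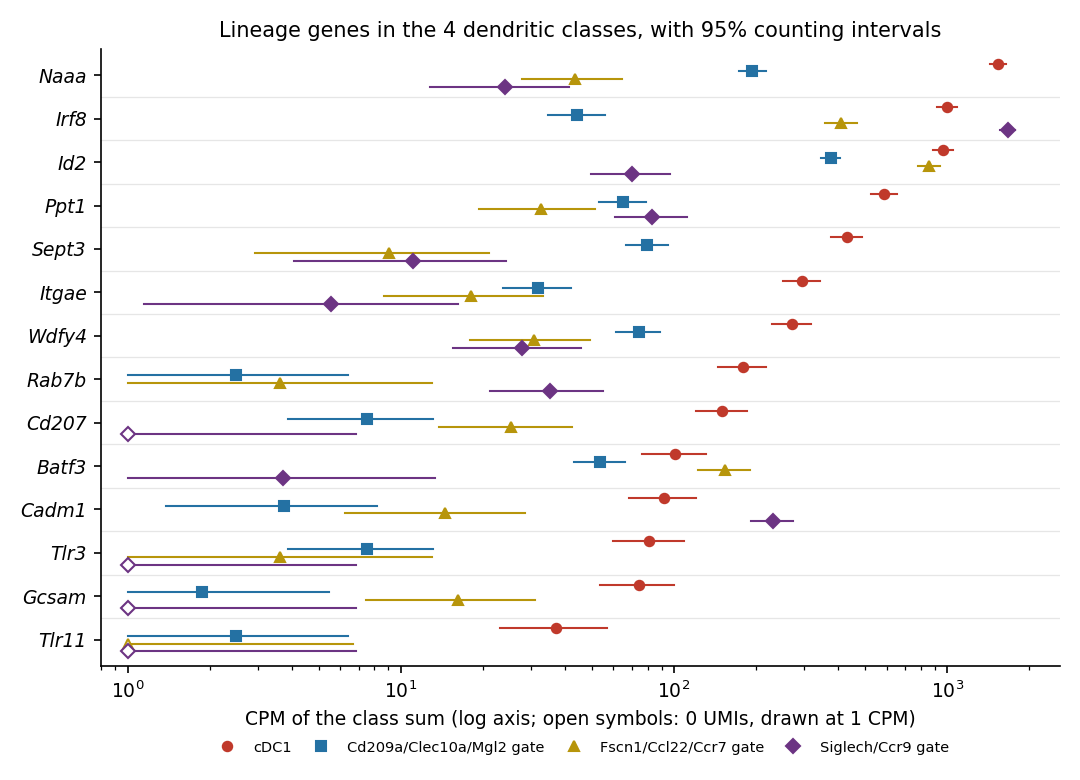
Level of cDC1 identity genes (vertical axis) as CPM of the summed UMIs of cDC1, cDC2, mature dendritic cells and pDC (horizontal log axis) with exact 95% intervals, where open symbols mark 0 UMIs. Naaa lies at 1534 CPM in cDC1 and 193 in cDC2, while Irf8 is higher in pDC (1665 CPM) than in cDC1 (997 CPM).

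Receptors and sensors of the identity list followed. Cd207, langerin, was at 150.2 CPM in cDC1, 7.49 in cDC2 and 25.3 in mature dendritic cells, with 0 UMIs in pDC, and 33 of 82 members held it. Tlr3, the endosomal sensor of double-stranded RNA, was at 81.3 CPM against 7.49 in cDC2 and 3.61 in mature dendritic cells. Tlr11, the mouse sensor of protozoan profilin, was at 37.1 CPM (21 UMIs in 15 members) against 2.50 in cDC2 and 0 in the other 2 classes. Rab7b, a small GTPase of endosome traffic, was at 178.5 CPM against 2.50 in cDC2 and 35.2 in pDC. Btla, an inhibitory receptor of lymphocytes and dendritic cells, was at 175 CPM against 42.3 over the other dendritic cells, a log2 ratio of 2.05 (1.65 to 2.45). Cd36, a scavenger receptor, was at 109.6 CPM, far above the 9.98 of cDC2 and beside the 107 of mature dendritic cells. Ifi205 stood at 88.4 CPM against 11.5 over the other dendritic cells, Hepacam2 at 91.9 against 16.7, and Gcsam at 74.2 against 4.45. Cd8a, which marks cDC1 of mouse spleen, had 1 UMI in the 82 cells.

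Genes were also ranked by size without regard to the lists. The ranking used the same ratios, so genes it shares with the identity list are a description and not a separate check. The 15 highest over the other dendritic cells, among genes at 50 CPM or more in either class, included Naaa, Rab7b, Itgae, Ppt1, Cd207, Sept3, Tlr3 and Gcsam from the identity list. Outside it stood Dnase1l3, a secreted nuclease that digests chromatin of dying cells, at 322 CPM (277 to 372) against 31.1, with a log2 ratio of 3.37 (2.99 to 3.76). Txndc16, a thioredoxin-domain protein, was at 161 CPM against 10.8, with a log2 ratio of 3.90 (3.29 to 4.56). The lysophospholipid acyltransferase Agpat3 was at 74.2 CPM against 5.19, Rtl8a at 118 against 13.7, and the transcript A530099J19Rik at 51.3 CPM against 1 UMI in the other dendritic cells. S100a8 also ranked there, at 2988 CPM against 516, and fell to 20.6 CPM in the 62 members without the neutrophil transcripts. Cxcl9 headed the ranking through 1 member, described with the cytokines. With 1 CPM added in place of 10, 13 of the 15 were shared. Against all other cells the 15 highest also held Cldn1, a tight-junction protein, at 240.3 CPM against 16.6, and Tcea3, a transcription elongation factor, at 203 against 17.3. Cldn1 was shared with cDC2 (117 CPM) and mature dendritic cells (130 CPM).

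**Figure D4:**
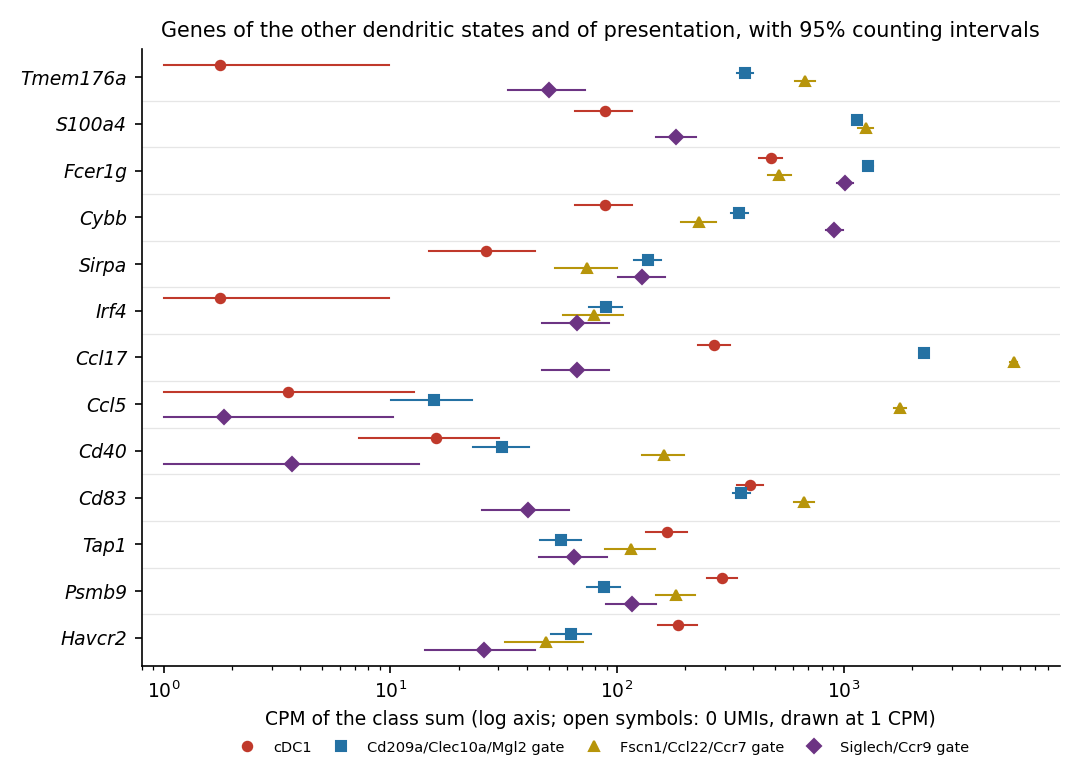
Level of genes that set cDC1 apart from the other dendritic classes (vertical axis), as CPM of the summed UMIs with exact 95% intervals on a horizontal log axis, where open symbols mark 0 UMIs. Tmem176a, at 1.77 CPM in cDC1, lies at 368 CPM in cDC2 and 679 in mature dendritic cells.

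The genes lowest in cDC1 were mostly genes of the other classes. Tmem176a, which encodes a membrane protein of endosomes in myeloid cells, had 1 UMI in cDC1 (1.77 CPM) against 368 CPM over the other dendritic cells, a log2 ratio of -7.70 (-13.0 to -5.22), and its neighbour Tmem176b had 2 UMIs against 360.3 CPM. Mmp12, a macrophage elastase, had 2 UMIs against 330 CPM. Asgr2, a subunit of the asialoglycoprotein receptor, and Flrt3, an adhesion molecule, had 1 UMI each. H2-M2, a nonclassical MHC class I gene, had 0 UMIs in cDC1 against 158 CPM and was at least 29.7-fold lower, from a floor of 3 UMIs over the class. Ccl5 and Il4i1 were high in mature dendritic cells (1781 and 417 CPM) and had 2 and 1 UMIs in cDC1, while Cd209d, Cox6a2 and Pltp were highest in pDC (882, 768 and 496 CPM) and had 5, 4 and 2 UMIs. S100a4, a calcium-binding protein of migrating cells, was at 88.4 CPM in cDC1 and 1151 in cDC2. The lists of cDC2 and pDC genes were also lower, which follows in part from gates that used genes of these programs. Of 15 cDC2 genes 0 were at least 2-fold higher and 10 at least 2-fold lower (median log2 ratio -1.86), or 13 without the cells holding neutrophil transcripts. Of 12 pDC genes the counts were 0 and 11 (median -2.13). Over all genes 3.28% were higher and 6.79% lower, or 9.09% lower without those cells. Against cDC2 alone, 3 of 6 pDC genes were higher and 1 was lower, where 4.08% and 5.73% of all genes were. Their summed log2 ratio was 0.116 (-0.101 to 0.330). In core cDC1 against cDC2, 1 of 4 was higher (Irf7) and 1 lower, where 176 and 457 of 5316 genes were. The summed log2 ratio there was -0.765 (-1.100 to -0.445), so the higher count did not hold in the core. The cDC2 factor Irf4 had 1 UMI against 82.7 CPM. Sirpa, the cDC2 sorting marker, was at 26.5 CPM in the members, at 84.4 in the 20 with neutrophil transcripts, and had 0 UMIs in the other 62. In core cDC1 it was at least 15.4-fold lower than in the other dendritic cells, from a floor of 3 UMIs over the class.

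Of 15 genes common to conventional dendritic cells, 4 were at least 2-fold higher in cDC1 (Flt3, Cst3, Ckb and Plbd1). Another 3 were lower (Itgax, Bcl11a and Relb). The shares over all genes were 3.28% higher and 6.79% lower. Without the cells holding neutrophil transcripts Flt3 and Bcl11a were no longer past 2-fold. Cst3, the protease inhibitor cystatin C, was the largest by level, with 173 UMIs in the median member and 25929 CPM, against 11009 in cDC2, 19508 in mature dendritic cells and 2270 in pDC. Flt3, the receptor for the growth factor on which cDC1 depend, was at 139.6 CPM against 58.7 in cDC2, 43.3 in mature dendritic cells and 102 in pDC, and the log2 ratio over all 3 was 1.12 (0.72 to 1.51). Itgax, which encodes CD11c, was lower in cDC1, at 46.0 CPM against 157 in cDC2 and 170 in mature dendritic cells.

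Of 20 measured genes of the MHC class I route, 2 were at least 2-fold higher than in the other dendritic cells (Tap1 and Psmb9), 1 was lower (Cybb), and the median log2 ratio was 0.11. Over all genes 3.28% were higher and 6.79% lower, so the list as a whole was near that background against the 3 classes pooled. Tap1, a chain of the transporter that brings peptides into the endoplasmic reticulum, was at 166 CPM (134 to 203) against 56.8 in cDC2, 116 in mature dendritic cells and 64.7 in pDC, a log2 ratio over the 3 of 1.24 (0.87 to 1.60). The other chain, Tap2, was at 83.1 CPM against 36.7, and it joined the higher genes when the cells with neutrophil transcripts were left out. The immunoproteasome subunit Psmb9 was at 292 CPM against 113, a log2 ratio of 1.37 (1.09 to 1.65), and the proteasome activator Psme1 at 765 against 451, a log2 ratio of 0.76 (0.60 to 0.92). The presenting molecules themselves were near the other classes: H2-K1 at 852 against 971 CPM, H2-D1 at 1304 against 1208, and B2m at 1380 against 1498. Rab43, a GTPase with a role in cross-presentation by cDC1, was at 47.7 CPM against 20.4, a log2 ratio of 1.23 (0.51 to 1.92), and did not reach 2-fold with the added 10 CPM. Cybb, the oxidase subunit that slows antigen breakdown in phagosomes, was at 88.4 CPM against 436, and 10 members held all of its 50 UMIs. In core cDC1 it had 1 UMI, or 2.64 CPM. Against cDC2 alone, 5 of 19 measured genes of the route were at least 2-fold higher (Tap1, Tap2, Psmb9, Psme1 and Rab43), where 4.08% of 5340 genes were. Cybb alone was lower, where 5.73% were, and the summed log2 ratio was 0.295 (0.244 to 0.346). Against mature dendritic cells 2 of 21 were higher and 3 lower, where 524 and 571 of 5423 genes were.

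MHC class II genes chose the members in part, and H2-Aa, H2-Ab1 and H2-Eb1 together ran from 6 to 326 UMIs per member with a median of 149. Of 10 further genes of this route, H2-Ob was at least 2-fold higher than in the other dendritic cells, and H2-DMb2 and Lgmn were lower. The shares over all genes were 3.28% higher and 6.79% lower. The H2-DMb2 call ended without the cells holding neutrophil transcripts. H2-Ob, a chain of H2-O, which restrains peptide loading, was at 148 CPM against 61.8 in cDC2 and 46.9 in mature dendritic cells, a log2 ratio over the other dendritic cells of 1.65 (1.23 to 2.05). H2-DMb2, a chain of the loading factor itself, was at 122 CPM against 380.0 in cDC2. The invariant chain Cd74 was at 17679 CPM against 24446 in cDC2 and 15760 in mature dendritic cells, and Ciita, the master regulator of the class, at 219 against 263 and 79.4. Of 9 further genes of pathogen sensing, Tlr2 and Tlr7 were lower, at 28.3 against 96.0 CPM and at 5.30 against 23.0 CPM. None was higher, and the same shares over all genes stand beside these counts.

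Cytokine transcripts were spread unequally over the members. Cxcl9, a chemokine for T cells and NK cells induced by interferon-gamma, had 144 UMIs in 7 members, and 130 of them were in 1 cell. Its level fell from 254 CPM to 25.1 CPM without that cell, against 5.93 CPM over the other dendritic cells. Il12b, the p40 subunit of IL-12 that cDC1 can supply to T cells, had 31 UMIs in 5 members with 20 in 1 of them, at 54.8 CPM and 19.7 without that cell, against 231 in mature dendritic cells and 1.25 in cDC2. Il12a, Il10, Ifnb1 and Il27 had 0 UMIs in the 82 cells, and at these totals 3 UMIs would be 5.30 CPM. Cxcl16, a chemokine for Cxcr6-bearing T cells, was spread more evenly, at 306 CPM in 59 members against 230.3 in cDC2 and 596 in mature dendritic cells. Il1b was at 1456 CPM and in core cDC1 at 891 CPM, against 1974 over the other dendritic cells. Of 13 cytokine genes Cxcl9 was at least 2-fold higher, and Cxcl10, Ccl9 and Osm were lower. The shares over all genes were 3.28% higher and 6.79% lower. Without the cells holding neutrophil transcripts Cxcl10 lost its call, Il18 became 2-fold higher (64.4 against 26.2 CPM) and Il1b 2-fold lower (868 against 1914 CPM).

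Genes of the maturation program were mostly lower in cDC1 than in mature dendritic cells. Of 23 measured genes of the program 0 were at least 2-fold higher than in the other dendritic cells and 14 were lower (median log2 ratio -1.13), and against mature dendritic cells alone, a class gated on this program, 23 of 25 were lower, where 10.5% of 5423 genes were. Against cDC2 alone 3 of 18 were higher (Il12b, Cd200 and Serpinb6b), where 4.08% of 5340 genes were, and 3 were lower (Socs2, Il4i1 and Ccl17), where 5.73% were, with a median log2 ratio of -0.56. Ccr7, the receptor that leads dendritic cells to lymph nodes, had 1 UMI in cDC1 against 1660 CPM in mature dendritic cells, and Fscn1, an actin-bundling protein, had 0 UMIs against 807 CPM. Both genes set the mature gate, so their level there is a description. Ccl17, a chemokine for Ccr4-bearing T cells, was at 269 CPM in 23 members, against 2258 in cDC2 and 5630 in mature dendritic cells. The costimulatory molecules differed among themselves. Cd86 was at 208 CPM, beside the 212 of cDC2 and below the 364 of mature dendritic cells, and Cd40 was at 15.9 CPM against 31.2 and 161, with its call over all other dendritic cells lost without the cells holding neutrophil transcripts. Havcr2, which encodes TIM-3, was the costimulation-list gene higher in cDC1, at 186 CPM (152 to 225) against 63.0 in cDC2, 48.7 in mature dendritic cells and 25.9 in pDC, a log2 ratio of 1.82 (1.44 to 2.19). Tnfsf9, the ligand of 4-1BB, was lower, at 28.3 against 132 CPM. Ido1 had 0 UMIs in cDC1 and was at 0.371 CPM in the other dendritic cells.

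Receptors for chemokines and other guides were present at moderate levels. Of 8 measured, 0 were at least 2-fold higher than in the other dendritic cells and 3 were lower (Cx3cr1, Gpr183 and Ptger4). Without the cells holding neutrophil transcripts Gpr183 lost its call and Ccr1 became lower. Ccr2, the receptor that draws cells from blood, was at 272 CPM against 233, and Gpr183, the oxysterol receptor that positions dendritic cells, at 147 against 339. Ccr1 and Cxcr4, at 54.8 and 37.1 CPM, lay mainly in the members with neutrophil transcripts, and core cDC1 held 13.2 and 7.93 CPM. None of 5 measured interferon-stimulated genes and none of 11 genes induced by dissociation was at least 2-fold apart. Isg15 alone became higher without the cells holding neutrophil transcripts (56.7 against 19.6 CPM). Over all members, those with neutrophil transcripts included, 1 cell held 62.5% of its UMIs. Among core cDC1 with 3 or more Plet1 UMIs, 1 cell held 95.2% of 21 Isg15 UMIs. Core cDC1 with 0 Plet1 UMIs held 0 UMIs of Isg15. The higher call for Isg15 therefore rests mainly on 1 cell. The dissociation genes summed to 5120 CPM against 4921, a log2 ratio of 0.06 (-0.001 to 0.12).

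The maturation gate of at least 3 UMIs of Fscn1, Ccl22 and Ccr7 was passed by 2 of 82 members (2.44%, 0.297 to 8.53%). Both passed on Ccl22 alone, with 7 and 5 UMIs, and held 0 UMIs of Ccr7 and Fscn1. Both kept Xcr1 (6 UMIs) and Naaa (15 UMIs). They held 8 of the 31 Il12b UMIs, Ccl17 at 1260 CPM against 239 in the other 80, and Tnip3, an inhibitor of NF-kB signalling, at 1140 against 52.8 CPM. Of their Ccl17 UMIs 81.0%, and of their Tnip3 UMIs 68.4%, lay in 1 of the 2 cells. cDC1 that had lost Xcr1 and Clec9a on maturing would not be found by the rule.

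Cell-cycle genes did not set cDC1 apart from the other dendritic cells as a whole. None of 7 measured genes was at least 2-fold apart, where 3.28% of all genes were higher and 6.79% lower. The summed level was 364 CPM in cDC1, with a log2 ratio of 0.07 (-0.15 to 0.29). Of the 206 UMIs behind that sum 154 lay in 4 members, which held 19 to 66 each. The other classes were unlike each other, with 507 CPM in cDC2, 211 in mature dendritic cells and 5.55 in pDC. At least 3 cell-cycle UMIs were held by 11 of 82 cDC1 (13.4%, 6.89 to 22.7%), by 29 of 326 cDC2 (8.90%, 6.04 to 12.5%), by 4 of 116 mature dendritic cells (3.45%) and by 0 of 156 pDC. With each cell thinned to 1000 UMIs and 2 UMIs required, the shares were 6.10% of cDC1 (2.01 to 13.7%), 5.56% of cDC2 and 3.45% of mature dendritic cells. The intervals of cDC1 and cDC2 overlapped in both forms. The 11 cDC1 also held Stmn1, a tubulin regulator, at 304 against 21.7 CPM in the other 71, the replication helicase subunit Mcm2 at 105 against 2.17, the thymidylate synthase Tyms at 114 against 2.17, and Cks1b at 295 against 26.1.

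Among the 60 core cDC1 some genes were spread unequally. At 1000 UMIs per cell the variance over the mean, which lies near 1 for sparse genes whatever their spread, had a median of 1.05 over 744 genes and was highest for Cxcl9 (19.2), Malat1 (12.1), Cxcl2 (6.19), Tmsb4x (6.13), Cst3 (3.76), Klf2 (3.30) and Ccl17 (3.15). Plet1, a surface protein known from epithelial progenitors and from dendritic cells of the intestine, ran from 0 to 26 UMIs in the 82 members and was at 516 CPM, beside 529 in cDC2 and above 171 in mature dendritic cells and 16.7 in pDC. Core cDC1 with 3 or more Plet1 UMIs (27 cells) and with 0 (26 cells) were set side by side after their values were seen, as a description. Ccl17 was in 14 of 27 against 4 of 26 cells (672 and 60.6 CPM), Epcam in 25 against 10 (852 and 162 CPM), the lectin Mgl2 in 18 against 5 (460 and 74.0 CPM), and S100a4 in 9 against 0. Ltc4s, the leukotriene C4 synthase, was in 8 against 0 cells and the fusion protein Dcstamp in 7 against 0.

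Plet1-negative core cDC1 held other genes more often. Batf3 was in 19 of 26 against 8 of 27 cells (182 and 67.2 CPM), Plac8 in 10 against 2 (303 and 10.3 CPM), Tob1, an antiproliferative protein, in 9 against 0, the cell-cycle inhibitor Cdkn2d in 8 against 0, and the myeloid factor Cebpa in 6 against 0. Xcr1 was in 25 of 26 against 27 of 27, Naaa in 26 and 27, and Itgae in 16 against 24. The median depth was 5672 UMIs in the Plet1-negative cells and 6904 in the others. Ctsk, Fabp5 and Ctsd ranked among the genes of the Plet1-negative cells through 1 cell each.

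**Figure D5:**
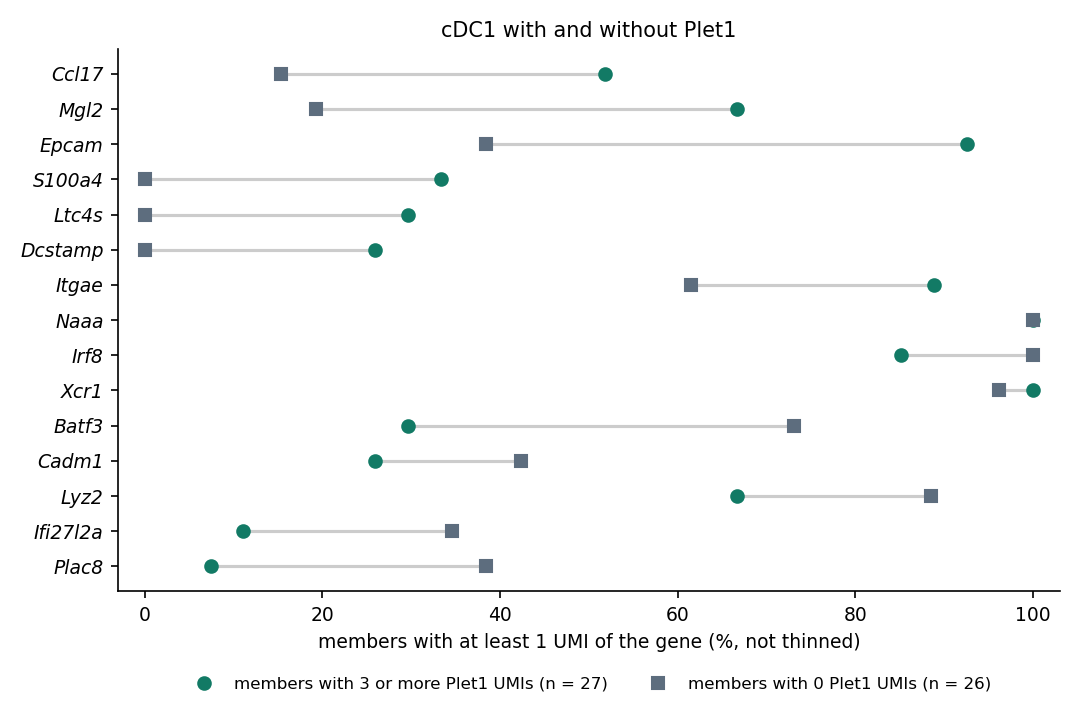
Share of core cDC1 with at least 1 UMI of each gene (horizontal axis, percent, not thinned), for 27 cells with 3 or more Plet1 UMIs (circles) and 26 cells with 0 (squares). Ccl17, Epcam and Mgl2 are found in more cells of the first set, and Batf3 and Plac8 in more of the second.

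Markers of other cell types were low in the members, apart from the neutrophil genes. The rule shut out cells with Cd3 or Cd79a UMIs and limited C1q. Low sums for T cells, B cells and macrophages therefore follow in part from the choice and are a description. Summed CPM were 15.9 for the T cell list, 3.53 for NK cells, 8.84 for endothelium, 1.77 for stroma and 0 for basophils and mast cells. They were 106 for B cells, 143 for macrophages, 590.2 for alveolar macrophages, of which Plet1 was most, and 497 for epithelium, of which Epcam was 456, a gene that cDC2 also carried at 616 CPM. TdTomato, the mark of recombined cells, had 34 UMIs in 25 members (60.1 CPM), against 136 over the other dendritic cells and 1141 over all other cells. GFP had 0 UMIs, and Stk11, the gene of Lkb1, had 8 UMIs or 14.1 CPM. Xcl1, the ligand of Xcr1, had 0 UMIs in cDC1. The part of free or foreign RNA in these values was not tested.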

How the data were processed

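The authors joined the cells of all 4 mice in 1 deposited matrix of UMI counts. Its header gives Cell Ranger 3.0.2, the submitters' processing notes name mm10, GFP and TdTomato were added as features, and the libraries were 10x Chromium 3′. The matrix held 31055 features, 20351 columns and 58624795 UMIs, and 0 columns of other samples. Mice and cells could not be joined, so no test between mice was made. An allele that all mice share and the values of 2 genes are not reported here.

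Columns with at least 200 genes and at most 13.4% of UMIs in 13 mitochondrial genes (the 98th percentile) were kept. Gates set the classes, and 922 cells past 2 reference gates were left out. UMIs were summed per class, divided by the class total (CPM), and given exact Poisson, Clopper-Pearson or conditional binomial 95% intervals. Genes were counted as changed at 2-fold or 4-fold among those at 20 CPM or more in either class, with 10 CPM added. Named genes came from the lists, or were the 15 highest and 15 lowest at 50 CPM or more, with genes of the gates left out. Within cDC1, the 10 highest and 10 lowest of each split were open to naming. The members and lists were chosen with earlier results of these data known. Core cDC1, the neutrophil limit and the Plet1 split were chosen after their values were seen. Doublets were not removed, and Scrublet (scanpy 1.11.5, expected rate 6%) was run as a check. Python 3.11.15, numpy 2.4.6, scipy 1.17.1 and pandas 2.3.3 were used, with gene positions from GENCODE M21. The interval code was tested on simulated data.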

Additional observations from a re-analysis of the deposited data

How the results depend on the processing

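The rule decided the size of the class: 1 UMI of Xcr1 and Clec9a gave 0.694% of cells, 3 UMIs 0.327%, and detection of both genes 0.191%. The summed identity genes kept their direction, with log2 ratios of 1.70 at 1 UMI, 1.71 with the 3 other dendritic classes weighted equally and 1.73 under stricter gates. The summed cell-cycle genes had log2 ratios of 0.87 with both genes detected, -0.58 with a limit at the 98th percentile of genes per cell, 0.59 with equal weights and 0.38 under stricter gates. Leaving out cycling members on the cDC1 side alone gave -2.99, which follows from its construction. Shares with a UMI followed the thinning to 500 UMIs, to 2000 UMIs or none: Itgae 9.76%, 44.4% and 74.4%, Irf8 36.6%, 76.5% and 95.1%, Naaa 51.2%, 92.6% and 97.6%. Log2 ratios that turned their direction were Cd8a (0.29), Chil3 (0.67) and TdTomato (0.23) at 1 UMI, and S100a9 (-0.19) and Cxcr2 (-0.28) without the cells holding neutrophil transcripts, an alternative chosen after seeing the data. Counts of genes at least 4-fold higher ran from 22 to 36. No paired analysis was possible because the pooled matrix carries no replicate numbers, and for the same reason no mouse could be left out. The depth of 82 cells limits genes under 5.30 CPM.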
